A study of Homo sapiens with 24 samples.

Results

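Ser5-phosphorylated (S5P) and Tyr1-phosphorylated (Y1P) RNA polymerase II (Pol II) were compared with each other over gene bodies (GBs) in irradiated cells. The comparison used the 8 sequencing runs labelled S5P or Y1P and irradiated, of 24 runs in the series, chosen by antibody and treatment in the sample titles. Summing the runs of each replicate number gave 2 libraries for each antibody. All 54335 genes of the table entered, and 21246 of them (14661 protein-coding genes [PCGs] and 5727 lncRNA genes) held enough counts to be tested.

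The cells of every group were wild-type U2OS, a human osteosarcoma line, and the irradiated groups had received 10 Gy of ionizing radiation (IR). The labels give 10 min between irradiation and harvest, whereas the methods of the study give 30 min, and which applies is not known. Nonirradiated (non-IR) libraries of both antibodies and S2P libraries (Ser2-phosphorylated Pol II) exist at the same replication. They are described here only beside the irradiated pair, but they entered the same fit and so added to its estimates of spread and of the replicate term. Nothing in the labels says whether the replicate numbers mark separate cultures, so p-values measure the spread between these libraries.

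The C-terminal domain (CTD) of the largest Pol II subunit is a long array of heptad repeats whose residues are phosphorylated in a changing pattern along a gene. S5P is placed by the CDK7 kinase of TFIIH around initiation, recruits the capping enzymes and is also found on Pol II engaged with the splicing machinery. S2P builds up toward the 3′ end, and Y1P has been linked to promoters, enhancers and antisense transcription in mammalian cells. mNET-seq isolates Pol II with an antibody to one of these marks and sequences the nascent RNA protected inside the complex. Counts in a GB (from 200 bp downstream of the TSS to the TES) leave out the promoter-proximal reads, so the first peak of S5P at the TSS is not part of the values below.

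The 4 irradiated libraries held 20189076 and 20118520 counts (Y1P, replicates 1 and 2) and 17212084 and 25656851 counts (S5P). Levels are CPM (counts scaled to the TMM-adjusted total of the library), and every difference is S5P minus Y1P as log2FC. They are therefore relative to the typical gene of each library, and a difference in how much Pol II each antibody recovered cannot be seen. The 14 mesenchymal markers chosen for U2OS summed to 1204 to 1549 CPM over the 4 libraries, and 24 markers of other lineages to 63.5 to 77.9 CPM, with 2 or 3 of the 24 at 0. In bulk libraries fewer transcribing cells and less transcription per cell cannot be told apart.

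S5P was lower than Y1P on lncRNA genes and higher on PCGs with many exons. Of the lncRNA genes, 121 were lower with S5P and 1 was higher (adjusted p below 0.05, log2FC beyond 0.1), which is 2.11% and 0.0175% of those tested. For PCGs the order turned at this limit, with 380 higher (2.59%) and 96 lower (0.655%). Over all genes tested the shares were 1.83% higher and 1.04% lower. Differences were mostly small, and at a log2FC beyond 0.5 more PCGs were lower (83) than higher (68). Only 2 PCGs (0.0136%) and 1 lncRNA gene (0.0175%) were higher by a log2FC above 1, while 12 PCGs (0.0818%) and 41 lncRNA genes (0.716%) were lower by as much. The median log2FC was 0.04 for PCGs and -0.28 for lncRNA genes.

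These calls changed with the libraries used and with the replicate term of the fit. Without S5P replicate 2, without Y1P replicate 2, or without the term for the replicate number, 0 PCGs and 0 lncRNA genes passed in edgeR. Without S5P replicate 1, 75 PCGs were higher and 40 lower and 34 lncRNA genes lower, and without Y1P replicate 1, 323 PCGs passed, 117 of them lower, and 142 lncRNA genes were lower. Each of these fits leaves 1 library for an antibody, which is assumed to vary like the other groups. The 4 irradiated libraries alone gave 598 PCGs higher, 420 lower and 490 lncRNA genes lower. The unadjusted p was under 0.05 for 3896 genes in the fit as reported. DESeq2 on the 12 libraries called 471 PCGs higher and 43 lower, with 1 lncRNA gene higher and 36 lower. With upper-quartile scaling the split of PCGs moved to 128 higher and 122 lower, with PCGs scaled alone to 134 and 116, and with raw library totals to 34 and 6. The lncRNA median was between -0.37 and -0.16 over the 21 alternatives that include lncRNA genes. The PCG median was between -0.037 and 0.066 over 22 alternatives, so its sign changed with the setting. A permutation of 2 against 2 libraries cannot give an exact two-sided p below 0.333, so no single class value was tested that way.

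The shift of lncRNA genes was visible library by library. As the class median of log2 CPM minus each gene's mean over the 12 libraries, lncRNA genes stood at 0.19 and 0.35 in the irradiated Y1P libraries and at 0.06 and 0.00 in the irradiated S5P libraries. The non-IR libraries stood at 0.06 and -0.02 for Y1P and at 0.04 and -0.01 for S5P. Both irradiated Y1P libraries were thus above the other 6, and the step between the Y1P replicates was wider than that between Y1P replicate 1 and the nearer S5P library. Within replicate pairs, the median log2FC of lncRNA genes was -0.13 in pair 1 and -0.38 in pair 2, against -0.02 in each non-IR pair.

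**Figure D1:**
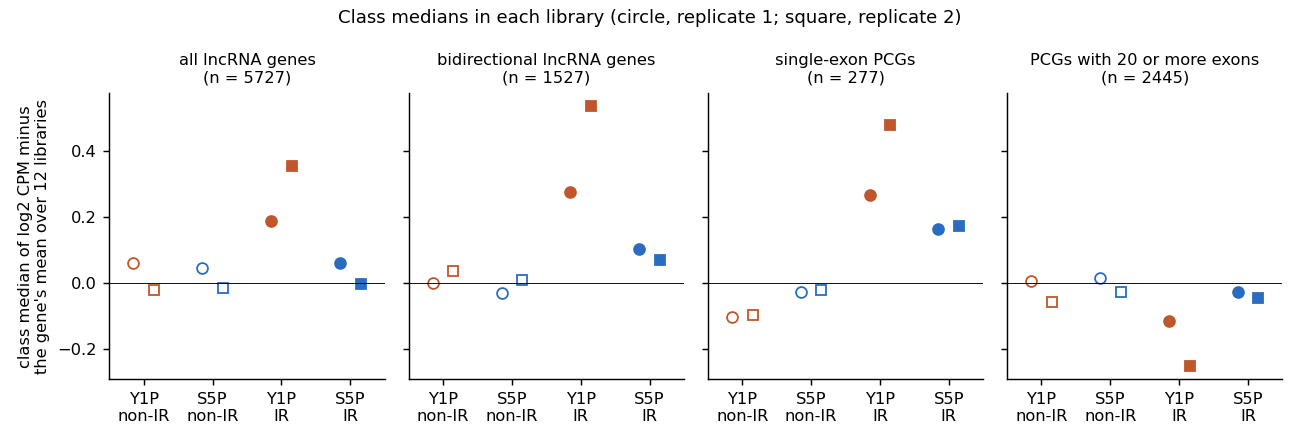
Class medians in each library, with the library group on the x axis and the median over the class of log2 CPM minus each gene's mean over 12 libraries on the y axis (log2 units). Orange is Y1P, blue is S5P, filled symbols are irradiated, circles are replicate 1 and squares replicate 2. The irradiated Y1P libraries stand highest for lncRNA genes (0.19 and 0.35) and lowest for PCGs with 20 or more exons.

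LncRNA genes were grouped by their place relative to PCGs in GENCODE release 44. Bidirectional lncRNA genes, which start within 1000 bp of a PCG start on the other strand, had the lowest median (-0.35, n = 1527), with 48 lower (3.14%, against 2.11% of all lncRNA genes) and 0 higher. Antisense lncRNA genes overlapping a PCG followed at -0.31 (n = 1660, 43 or 2.59% lower, 0 higher), and those overlapping a PCG on its own strand were at -0.22 (n = 175, 6 or 3.43% lower, 0 higher). Intergenic lncRNA genes were at -0.20 (n = 2365, 24 lower, 1 higher), and their share of 1.01% lower was close to that of all genes tested (1.04%). In 88.0% of the bidirectional and 70.4% of the intergenic genes the log2FC was below 0, against 52.1% of all genes tested. In pair 1 the bidirectional and intergenic medians were -0.18 and -0.10, and in pair 2 they were -0.47 and -0.30, so the order held in both. Single-exon lncRNA genes were lower still (-0.42, n = 776, 28 or 3.61% lower, 0 higher). Short lncRNA genes also had lower medians than long ones, from -0.44 under 3 kb (n = 1124) to -0.10 between 100 and 500 kb (n = 1130).

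Since lncRNA genes hold fewer counts than PCGs, both were compared at the same mean level over the 12 libraries. Between 3 and 10 CPM the median was -0.27 for 1013 lncRNA genes and -0.06 for 2535 PCGs. Between 10 and 30 CPM it was -0.12 for 403 lncRNA genes and 0.05 for 3134 PCGs, and above 100 CPM it was 0.00 for 114 and 0.11 for 2089. LncRNA genes lay below PCGs at each level, and both classes fell at low levels, with PCGs under 1 CPM at -0.22.

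**Figure D2:**
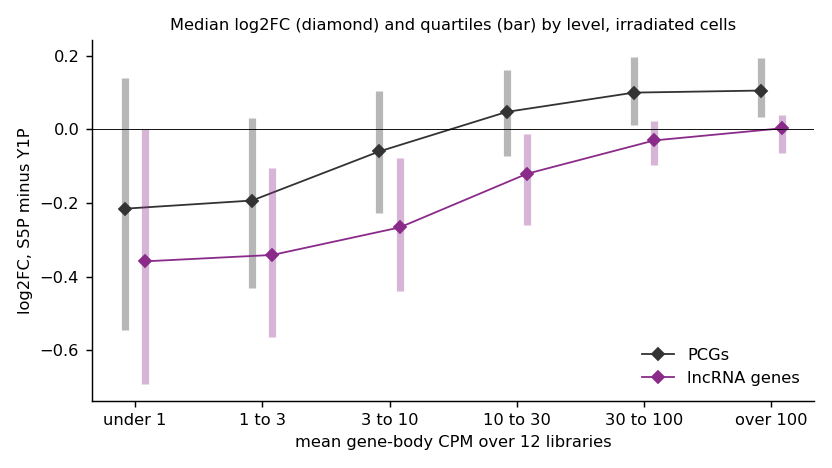
Median log2FC of S5P minus Y1P in irradiated cells (diamonds) with quartiles (bars), by mean GB level over 12 libraries in CPM, for PCGs (grey) and lncRNA genes (purple). LncRNA genes lie below PCGs in each of the 6 bins, at -0.27 against -0.06 between 3 and 10 CPM.

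Among lncRNA genes that passed with a mean of at least 50 counts, 4 are described as those furthest below -1. Of these, 3 overlap a PCG on the other strand and ENSG00000250259 is intergenic. TSPEAR-AS2 (chr21:44517216-44525952, + strand, hg38), antisense to TSPEAR, held 3.61 and 4.29 CPM in the Y1P libraries and 1.73 and 1.06 CPM in the S5P libraries. Its log2FC was -1.54 ± 0.28 (SE, n = 2 libraries per antibody, edgeR adjusted p = 0.00917). The non-IR log2FC was -0.08, with values of 1.64 to 2.73 CPM in all 4 non-IR libraries. ASH1L-AS1 (chr1:155562026-155563944, + strand), antisense to the 5′ end of the histone methyltransferase gene ASH1L, was at 10.4 and 21.2 CPM with Y1P and 6.22 and 4.93 CPM with S5P. Its log2FC was -1.50 ± 0.23 (edgeR adjusted p = 0.00403), and the non-IR difference was of the same sign at -1.05. ENSG00000250259 (log2FC -1.28, edgeR adjusted p = 0.0163) and ENSG00000261532 (log2FC -1.27, edgeR adjusted p = 0.0171) held no more than 5.37 CPM in any of the 4 libraries. The libraries of the antibodies did not overlap in these 4 genes, which were chosen by their difference. On this side 40.6% of all lncRNA genes did not overlap.

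ENSG00000261532 lies on chromosome 16 next to BRICD5, the PCG with the largest rise that the rule for named genes allowed. BRICD5 (chr16:2209253-2210905, - strand) encodes a BRICHOS domain protein. It was at 3.28 and 3.30 CPM with Y1P and at 7.52 and 6.35 CPM with S5P, a log2FC of 1.07 ± 0.20 (edgeR adjusted p = 0.00917). ENSG00000261532 (chr16:2211997-2212863, + strand) starts upstream of BRICD5 on the other strand and went from 2.94 and 3.72 CPM with Y1P to 1.03 and 1.70 CPM with S5P. The 2 neighbours thus differed between the antibodies in opposite directions. The pair was noticed after the values were seen.

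The lncRNA gene that was higher with S5P was ENSG00000285646 (chr1:11907940-11914298, + strand). Its adjusted p was the lowest of all genes tested, shared with FASN and the pseudogene NSUN5P2. Its counted region contains RNU5E-1, a gene for U5 snRNA. U5 is the snRNA of the spliceosome whose conserved loop holds the exon ends during both steps of splicing. The host carried the highest count of any gene that passed.
The host gene held 5405 and 4520 CPM with Y1P and 10412 and 9894 CPM with S5P, a log2FC of 1.03 ± 0.13 (edgeR adjusted p = 0.00179). With S2P it held 11993 and 13185 CPM. In non-IR cells it was at 8855 and 7448 CPM with Y1P and 9034 and 8733 CPM with S5P (log2FC 0.13). The Y1P libraries of irradiated cells were thus below all the other libraries given here. Counts over the host cannot be divided between the lncRNA and U5, and U5 has near-identical gene copies, so the share of each copy is uncertain under unique mapping.

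Spliceosomal and U7 snRNA genes were found by gene name, and names ending in P were left out, so hosts of those are not counted. Of 12 tested genes that contain such an snRNA gene, ENSG00000285646 was the 1 that was higher. The 8 that did not pass had log2FCs between -0.41 and 0.02, and 3 were lower. Over all genes tested 1.83% were higher and 1.04% lower, and 12 hosts are few to set against these shares. ENSG00000270022, which starts with the RNU12 gene of the minor spliceosome, was lower (log2FC -1.02, edgeR adjusted p = 0.0116), and so was ENSG00000287190, which starts with the U1 variant gene RNVU1-6 (log2FC -0.999, edgeR adjusted p = 0.00917). In both hosts the snRNA ends before base 200, so their counts come from the sequence downstream of it. CROCC, which contains the U1 genes RNU1-4 and RNU1-2, had a log2FC of -0.48 (edgeR adjusted p = 0.0276). SNORD3B-2, a copy of the U3 snoRNA of ribosomal RNA processing, was at 31.5 and 55.8 CPM with Y1P and 18.02 and 31.0 CPM with S5P (log2FC -0.83 ± 0.12, edgeR adjusted p = 0.00291). Its annotated gene is 791 bp long, and its first 200 bp are not in these counts. These loci were chosen after their values were seen.

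Among PCGs the difference followed the number of exons. PCGs with 20 or more exons in the canonical transcript had a median log2FC of 0.14 (n = 2445). Of these 217 were higher (8.88%) and 12 lower (0.491%), against 2.59% and 0.655% of all PCGs. In 78.6% of them the log2FC was above 0, against 58.1% of all PCGs. The median was 0.08 for 10 to 19 exons (n = 4835, 138 or 2.85% higher, 17 or 0.352% lower). It was 0.01 for 5 to 9 exons (n = 4607, 24 or 0.521% higher, 27 or 0.586% lower). For 2 to 4 exons it was -0.09 (n = 2497, 1 or 0.04% higher, 38 or 1.52% lower). Single-exon PCGs were at -0.20 (n = 277, 0 higher, 2 or 0.722% lower). The order from single-exon to exon-rich genes was the same in both pairs, from -0.09 to 0.10 in pair 1 and from -0.32 to 0.20 in pair 2. In the non-IR pairs these ends were at 0.04 and 0.01 (pair 1) and 0.02 and 0.02 (pair 2).

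Across 14661 PCGs the Spearman correlation of the difference with exon number was 0.18 in pair 1 and 0.39 in pair 2, given as a description because genes are not independent. The difference between the irradiated Y1P replicates themselves had a correlation of -0.31 with exon number, so the replicates of one antibody differed along the same axis. With gene length the sign turned between pairs (-0.18 and 0.11). Both properties were therefore used at once. Within PCGs of 10 to 100 kb the median went from -0.10 for 2 to 4 exons (n = 1384) to 0.22 for 20 or more (n = 1129). In the latter 201 were higher (17.8%) and 5 lower (0.443%). Among PCGs with 20 or more exons the median was 0.32 at 10 to 30 kb (n = 276, 96 or 34.8% higher, 1 or 0.362% lower). At 100 to 500 kb it was 0.11 (n = 1167, 10 or 0.857% higher, 7 or 0.6% lower). The genes that were higher had a median of 21 exons and 24433 bp, against 9 exons and 39704 bp for all PCGs tested. Those that were lower had a median of 6 exons and 28934 bp. Level moved with the difference as well (Spearman correlation 0.14 in pair 1 and 0.48 in pair 2), and within 10 to 100 CPM the median still went from -0.17 for single-exon PCGs (n = 46) to 0.17 for those with 20 or more exons (n = 914).

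**Figure D3:**
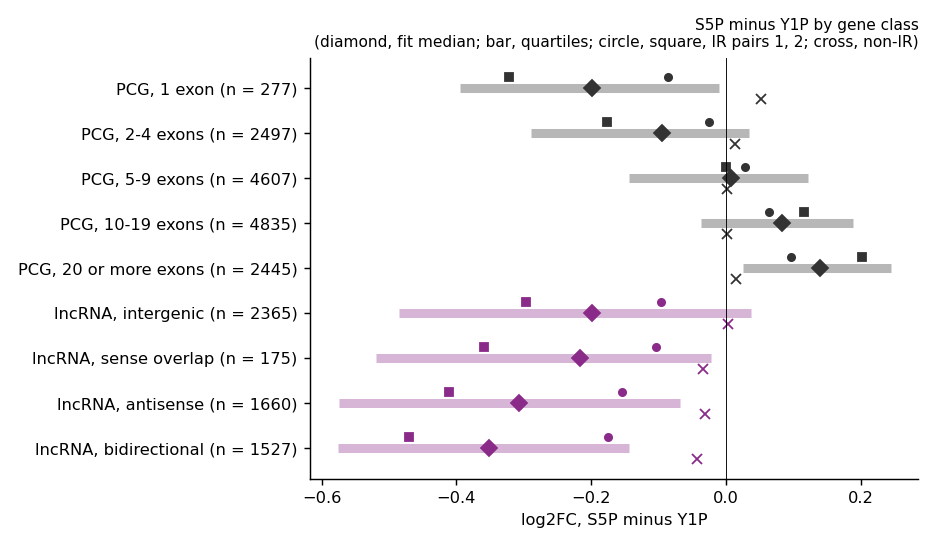
S5P minus Y1P as log2FC (x axis) for PCGs by exon number (grey) and lncRNA genes by position (purple). Diamonds are medians of the fit in irradiated cells, bars are quartiles, circles and squares are the medians of irradiated pairs 1 and 2, and crosses are the fit in non-IR cells. Medians run from -0.20 to 0.14 over the PCG classes and from -0.20 to -0.35 over the lncRNA classes, while the non-IR medians stay near 0.

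The PCGs with the smallest p-values were chosen after their values were seen. FASN (fatty acid synthase, chr17:82078338-82098294, 43 exons) was at 418 and 315 CPM with Y1P and 639 and 504 CPM with S5P, a log2FC of 0.64 ± 0.09 (edgeR adjusted p = 0.00179). ITGA5, the α5 chain of the fibronectin receptor, rose from 41.5 and 43.9 CPM to 66.4 and 63.4 CPM (log2FC 0.60 ± 0.09, edgeR adjusted p = 0.00291). ALYREF, an mRNA export adaptor, had 17.5 and 17.7 CPM with Y1P and 29.0 and 31.1 CPM with S5P (log2FC 0.77 ± 0.11, edgeR adjusted p = 0.00311). MED12, of the Mediator kinase module, and RHOT2, a mitochondrial transport GTPase, were higher with log2FCs of 0.52 and 0.63. For FASN, ITGA5 and ALYREF the non-IR log2FCs were 0.09, 0.23 and 0.33. Their S5P libraries lay above both Y1P libraries, as did those of 27.6% of all PCGs, and the choice by p-value favours this.

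Genes of the transcription and splicing machinery were mostly on the higher side. Of 39 core spliceosome genes 10 were higher (25.6%, against 2.59% of all PCGs) and 0 lower, with a median of 0.26 against 0.04. SNRNP200, the helicase that unwinds U4 from U6, was at 178 and 166 CPM with Y1P and 229 and 250 CPM with S5P (log2FC 0.47, edgeR adjusted p = 0.00917). PRPF8, which sits at the catalytic centre, had a log2FC of 0.42, and U2AF2, which binds the polypyrimidine tract, of 0.36. PRPF4B, a kinase of the spliceosome chosen after its values were seen, went from 52.2 and 54.7 CPM to 72.6 and 86.7 CPM (log2FC 0.58, edgeR adjusted p = 0.00403). Among 25 pausing and elongation factor genes 4 were higher and 0 lower (median 0.19). These were SUPT6H (log2FC 0.45) and SUPT5H (0.44), which travel with elongating Pol II, NELFCD (0.42), a subunit of the pausing factor NELF, and RTF1 (0.38). Exons numbered 45 in SNRNP200, 43 in PRPF8, 37 in SUPT6H and 30 in SUPT5H. They numbered 18 in RTF1, 15 in NELFCD and in PRPF4B, and 12 in U2AF2. Of all PCGs of 10 to 100 kb with 20 or more exons 17.8% were higher. The part of exon number in these lists was not tested.

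CDK9, the kinase of P-TEFb that releases paused Pol II, was the 1 of 24 CTD kinase, cyclin and phosphatase genes that passed. It was at 21.3 and 22.7 CPM with Y1P and 29.5 and 34.2 CPM with S5P (log2FC 0.54 ± 0.12, edgeR adjusted p = 0.0168). POLR2A, which encodes the subunit carrying the CTD, was at 175 and 169 CPM against 233 and 231 CPM (log2FC 0.43 ± 0.08, edgeR adjusted p = 0.00968) and was the 1 of 12 Pol II subunit genes that passed. Of 24 genes for 3′ processing and termination 2 were higher (SYMPK at 0.35 and CPSF1 at 0.49), and of 15 Integrator genes 2 were higher (INTS1 at 0.41 and INTS11 at 0.40). Among 20 SR protein and CLK kinase genes 2 were higher, CLK2 (0.39) and SRSF6 (0.81). No member of these lists was lower. With 1 or 2 members called in each, these counts are too few to set against the 2.59% of all PCGs.

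Cell cycle and matrix genes were also on the higher side. Of 29 G2 and M phase genes 10 were higher and 0 lower, with a median of 0.32. TOP2A, the topoisomerase that untangles sister chromatids, was at 237 CPM in each Y1P library and at 312 and 377 CPM with S5P (log2FC 0.53 ± 0.09, edgeR adjusted p = 0.00917). CDCA8 (0.48) of the chromosomal passenger complex, CDC25B (0.41), which activates CDK1, and TPX2 (0.41), a spindle assembly factor, were higher too. Of 33 DNA replication and G1/S genes 5 were higher and 0 lower (median 0.19), among them LIG1 (0.40), POLD1 (0.38), UHRF1 (0.34) and POLE (0.33). Among 32 collagen and matrix genes 6 were higher and 0 lower (median 0.22), including COL7A1 (0.50), AGRN (0.48), LAMB2 (0.48) and LAMA5 (0.39), each with many exons. These shares stand beside 2.59% of all PCGs that were higher. Exon number and level moved with the difference across PCGs, and their part in these lists was not tested.

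Double-strand break repair genes were mostly above 0, at 27 of 29 (93.1%, against 58.1% of all PCGs), with a median of 0.14. Of PCGs over 100 CPM 86.5% were above 0 (median 0.11). Of PCGs of 10 to 100 CPM with 20 or more exons 86.8% were above 0 (median 0.17). The part of level and exon number in the repair and PRC2 lists was not tested. The 2 repair genes that passed, RAD54L (0.32) and FANCD2 (0.32), were higher and make up 6.90% of the list. CDKN1A, which encodes an inhibitor of CDKs, was at 111 and 122 CPM with Y1P and 114 and 106 CPM with S5P (log2FC -0.07 ± 0.11, edgeR adjusted p = 0.787). BBC3, a proapoptotic gene, had a log2FC of -0.15 ± 0.11 (edgeR adjusted p = 0.513). In both genes the libraries of the antibodies were close to one another, and in CDKN1A they overlapped. Of 35 immediate early genes 1 was higher and 1 lower (2.86% each, against 2.59% and 0.655% of all PCGs). FOS was at 23.3 and 28.1 CPM with Y1P and 30.8 and 35.8 CPM with S5P (log2FC 0.38 ± 0.09, edgeR adjusted p = 0.0327), and NR4A2 was lower (-0.44, edgeR adjusted p = 0.0464). EGR1 had a log2FC of -0.01 ± 0.09, EZH2 of the PRC2 complex 0.11 ± 0.08 and the tyrosine kinase gene ABL1 0.05 ± 0.09, and none of these passed. Of 12 PRC2 genes 11 were above 0, with a median of 0.18, and 0 passed in edgeR (4 higher and 0 lower at an unadjusted p under 0.05), a list too short to set against 2.59%. Of 18 chaperone genes HSPA5 was higher (0.34), as was GAPDH (0.32) of 27 housekeeping genes. With 1 member called in each (5.56% and 3.70%), these lists are also too short to set against 2.59%.

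**Figure D4:**
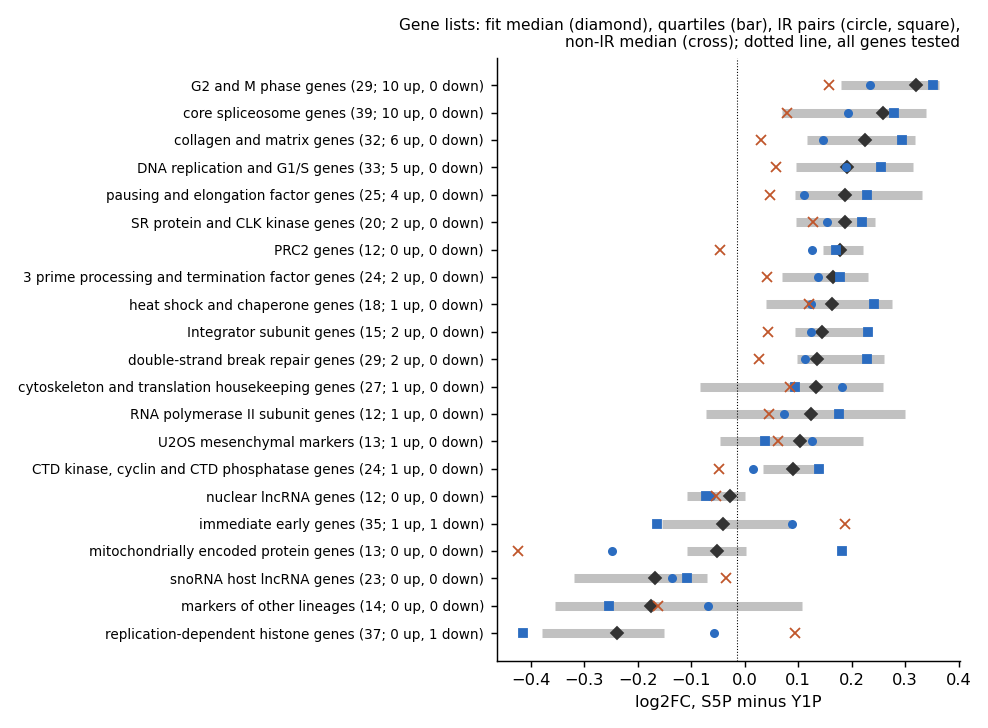
Median log2FC of S5P minus Y1P for 21 gene lists (diamonds) with quartiles (grey bars), irradiated pairs 1 and 2 (blue circles and squares) and the non-IR fit (orange crosses). Labels give the genes tested and how many passed in each direction, and the dotted line is the median of all genes tested. G2 and M phase genes (0.32) and core spliceosome genes (0.26) are at the top and histone genes (-0.24) at the bottom.

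On the lower side, the PCG with the smallest p was TOB1. TOB1, an antiproliferative gene with 2 exons (chr17:50862223-50867978), was at 18.6 and 34.8 CPM with Y1P and 10.99 and 15.1 CPM with S5P (log2FC -1.004 ± 0.15, edgeR adjusted p = 0.00403). Its non-IR log2FC was -0.82. The purinergic receptor gene P2RY11 went from 4.37 and 6.55 CPM to 2.76 and 2.48 CPM (log2FC -1.06 ± 0.22, edgeR adjusted p = 0.0125). DUS4L-BCAP29 (log2FC -1.10) and ENSG00000267740 (log2FC -1.05, edgeR adjusted p = 0.0415) also passed at a log2FC below -1. The first is a readthrough gene that shares exons with DUS4L and BCAP29, and reads over more than 1 gene body were left out, so its level is uncertain. WDR74, a ribosome biogenesis factor chosen after its values were seen, had 41.2 and 76.2 CPM with Y1P and 28.4 and 37.6 CPM with S5P (log2FC -0.80 ± 0.14, edgeR adjusted p = 0.00917). Y1P replicate 2 was the highest of the 4 libraries in each of TOB1, P2RY11 and WDR74.

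Replication-dependent histone genes, which lack introns, had a median of -0.24 (37 tested, 0 higher, 1 lower), at -0.06 in pair 1 and -0.42 in pair 2. H3C1 passed, at 19.3 and 42.9 CPM with Y1P and 17.2 and 24.7 CPM with S5P (log2FC -0.51 ± 0.13, edgeR adjusted p = 0.0343), although the groups overlapped. ZNF genes were near 0 (431 tested, 1 or 0.232% higher, 5 or 1.16% lower, median -0.01). Cytosolic ribosomal protein genes were near 0 as well (83 tested, 0 higher, 1 or 1.20% lower, median 0.03). The 1 histone gene that was lower is 2.70% of its list. Of all PCGs 2.59% were higher and 0.655% lower, and these counts are too few to set against those shares.

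The genes with the most counts did not pass. SNHG1, a snoRNA host lncRNA gene, was at 33093 and 42422 CPM with Y1P and 22129 and 43557 CPM with S5P (log2FC -0.32 ± 0.23, edgeR adjusted p = 0.494). GAS5 (log2FC -0.38 ± 0.21) and RPL3 (-0.42 ± 0.17), chosen for their counts, overlapped between antibodies as well. Of 58 lncRNA genes that hold an annotated snoRNA, 3 were lower (5.17%, against 2.11% of lncRNA genes) and 0 higher, with a median of -0.23. None of the 23 members of a list of snoRNA host lncRNA genes passed (median -0.17), nor of 12 nuclear lncRNA genes (median -0.03), lists too short to set against that share. The 13 protein genes of the mitochondrial genome, which Pol II does not transcribe, had a median of -0.05, at -0.25 in pair 1 and 0.18 in pair 2, and none passed. MT-ND5 (log2FC -0.09) and MT-CYB (-0.01) were close to 0. The mitochondrial median was -0.48 and -0.42 in the non-IR pairs, with MT-CYB at 146 and 117 CPM with Y1P against 93.5 and 108 CPM with S5P.

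**Figure D5:**
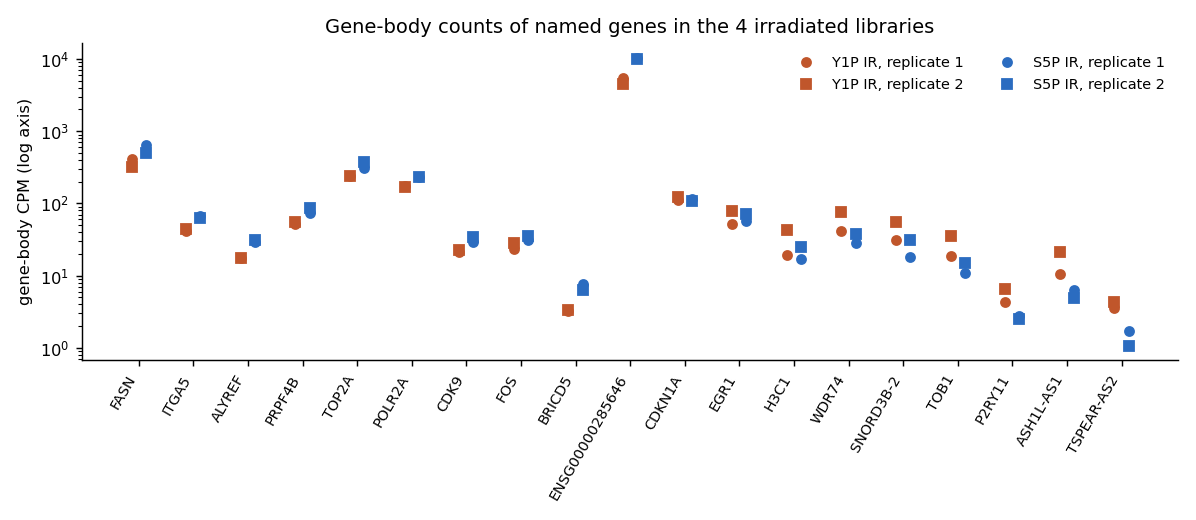
GB counts of 19 named genes in the 4 irradiated libraries, in CPM on a log axis. Orange is Y1P and blue is S5P, with circles for replicate 1 and squares for replicate 2. The S5P libraries lie above both Y1P libraries from FASN to ENSG00000285646, the groups overlap for CDKN1A, EGR1 and H3C1, and S5P lies lower from TOB1 to TSPEAR-AS2.

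Without irradiation the antibodies were not separated at any single gene in this fit. In the non-IR libraries 0 genes passed in edgeR, with 1422 genes at an unadjusted p under 0.05. The lowest adjusted p, 0.101 in edgeR, was that of SNORD3B-2 (non-IR log2FC -0.77, irradiated -0.83). Genes called in irradiated cells had non-IR medians of the same sign but smaller. These were 0.09 for the 380 PCGs higher, -0.18 for the 96 lower and -0.25 for the 121 lncRNA genes lower. The change of the S5P minus Y1P difference with irradiation was then tested as an interaction. Again 0 genes passed (lowest adjusted p = 0.458), with 2076 at an unadjusted p under 0.05. The smallest interaction p-values were those of ENSG00000280441 (change of 1.17 ± 0.24 in log2FC) and ENSG00000285646 (0.91 ± 0.19). The median of the interaction was -0.26 for lncRNA genes and 0.05 for PCGs. Thus the calls made in irradiated cells were not shown to differ from non-IR cells for any single gene.

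The S2P libraries of irradiated cells gave the position of Y1P and S5P on a wider scale. They were compared with the same Y1P libraries, so the 2 differences are not independent and are given side by side. For S2P minus Y1P the median was -0.40 for lncRNA genes, -0.60 for bidirectional lncRNA genes, -0.52 for single-exon PCGs and 0.25 for PCGs with 20 or more exons. For S5P minus Y1P these were -0.28, -0.35, -0.20 and 0.14. S2P minus Y1P called 2433 PCGs higher (16.6%) and 1272 lower (8.68%), with 48 lncRNA genes higher (0.838%) and 1304 lower (22.8%). S5P minus S2P called 10 PCGs higher (0.0682%) and 20 lower (0.136%), with 8 lncRNA genes higher (0.14%) and 6 lower (0.105%). In FASN the S2P libraries were at 764 and 615 CPM, in TOP2A at 519 and 507 CPM and in TOB1 at 6.64 and 7.55 CPM, so in each gene S5P lay between Y1P and S2P in each replicate. This order held for 57 of the 72 named genes that passed, which were chosen by S5P minus Y1P. The other 15 included TSPEAR-AS2, at 2.21 and 2.38 CPM with S2P, above S5P, and UHRF1, at 139 and 175 CPM with S2P, below S5P. No share over all genes tested stands beside this count, so it describes the named genes only.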

How the data were processed

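The authors deposited raw counts of reads per GB, made after trimming with cutadapt (version 1.8.3 in the submitters' processing notes), alignment to hg38 with STAR and strand-specific counting with featureCounts of uniquely mapped reads outside shared regions. Of 55399 entries, 1064 repeated an ID. Names and coordinates came from GENCODE release 44, which lacked 78 IDs (0.0116% of counts). Runs of a library differed little beyond sampling noise and were summed.

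edgeR 4.0.16 in R 4.3.3 (filterByExpr, TMM, quasi-likelihood, Benjamini-Hochberg over all genes tested) was fitted to 12 libraries with a term for each of 6 groups and a block for the replicate number. Replicate differences correlated at 0.365 to 0.734 over 15 pairs of groups, which paired the libraries. The SE is the log2FC over the square root of F. The fit was tested on simulated data, and DESeq2 1.42.0 was an alternative. Passing meant an adjusted p under 0.05 with a log2FC beyond 0.1, the limit of the study, and counts beyond 1 are given beside it.

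Named genes were the 10 PCGs and 4 lncRNA genes in each direction furthest beyond 1 with a mean of 50 counts and the same sign in both pairs, up to 4 members per list by p-value, 9 chosen genes, and those with most counts or smallest interaction p. Members and lists were chosen with earlier results of these data known.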

Additional observations from a re-analysis of the deposited data

Results flagged for a closer look

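In 3 gene lists the median difference had one sign in both irradiated pairs and the other in both non-IR pairs, and these differences were not tested. Replication-dependent histone genes were at -0.06 and -0.42 in the irradiated pairs and at 0.15 and 0.07 in the non-IR pairs, a median change of -0.296. The genes for CTD kinases, cyclins and CTD phosphatases were at 0.02 and 0.14 against -0.05 and -0.06, a change of 0.113. PRC2 genes were at 0.13 and 0.17 against -0.01 and -0.05, a change of 0.242. Wider classes showed the same turn of sign, so it is not particular to these lists. Single-exon PCGs (n = 277) were at -0.09 and -0.32 in the irradiated pairs against 0.04 and 0.02, a change of -0.251. PCGs over 100 CPM (n = 2089) were at 0.04 and 0.18 against -0.02 and -0.02, a change of 0.135. No gene of any list passed the interaction test.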

How the results depend on the processing

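With 2 libraries per antibody the calls were fragile, and the depth of each library was not varied. Counts follow as PCGs higher and lower, then lncRNA genes higher and lower, then all genes higher and lower, all at a log2FC beyond 1 unless 0.1 is named, where the fit as reported gave 2, 12, 1, 41, 3 and 53 and, beyond 0.1, 380, 96, 1 and 121. Without the replicate block all were 0. The 4 irradiated libraries alone with the replicate block gave 7, 52, 2, 135, 10 and 190 (beyond 0.1, 598, 420, 5 and 490), and without the block 0, 0, 0, 2, 0 and 2 (1, 3, 0 and 2). The 6 irradiated libraries gave 13, 50, 5, 136, 22 and 188 (1688, 526, 10 and 582). DESeq2 on 12 libraries gave 1, 0, 1, 3, 2 and 3 (471, 43, 1 and 36), and on the 8 runs 5, 26, 1, 79, 7 and 106 (1998, 502, 8 and 487). Removing a trend with gene length gave 4, 7, 1, 20, 9 and 28 (527, 85, 2 and 76), and library totals gave 0, 1, 1, 4, 1 and 5 (34, 6, 1 and 5). Without a filter they were 6, 31, 3, 87, 10 and 120 (478, 248, 3 and 286), and with at least 50 counts in each library 1, 3, 0, 6, 1 and 11 (161, 67, 1 and 60). PCGs alone gave 1 and 16 (134 and 116). Relative log expression factors gave 4, 11, 1, 43, 5 and 55, and upper quartile factors 0, 16, 0, 56, 0 and 74 (128, 122, 1 and 147). Chosen after seeing the data, sequencing batch 1 alone gave 1, 8, 1, 21, 2 and 30 (187, 44, 1 and 41) and batch 2 alone 1, 13, 1, 37, 3 and 52 (178, 61, 1 and 69). At a limit of 0.5 the counts were 68 and 83 for PCGs and 1 and 120 for lncRNA genes, and over all genes 70 were higher and 278 passed in either direction. At 0.1 over all genes they were 389 and 222.

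Leaving out 1 library gave 0 to 5, 0 to 32, 0 to 2, 0 to 77, 0 to 6 and 0 to 112 (0 to 350, 0 to 175, 0 to 3 and 0 to 225), the last from leaving out non-IR Y1P replicate 2, an alternative added after seeing the data. Without Y1P replicate 1 of the irradiated cells the counts were 3, 32, 2, 77, 5 and 112. The interaction passed at 0 to 6 genes when a library was left out (6 without irradiated Y1P replicate 1) and at 9 without a filter. Settings without mitochondrial genes or without snoRNA hosts left every count within 1.5 times. Hosts here were genes holding an annotated snoRNA, and GAS5, which held none in this annotation, was kept.

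The median of single-exon PCGs went from -0.20 to 3.94e-05 with the length trend removed and to between -0.29 and -0.15 without 1 library. That of PCGs with 20 or more exons was 0.063 with upper quartile factors and 0.063 to 0.19 without 1 library. The correlation with exon number stayed between 0.24 and 0.43 over 19 alternatives, and the lncRNA median between -0.37 and -0.16 over 21. The cause of these shifts was not tested. Of 72 named genes that passed, 64 passed in DESeq2 on the 12 libraries, 27 with library totals and 52 when scaled by upper quartiles, and none reversed. Reversed values were those of genes that did not pass. With the length trend removed MT-ATP8 was at 0.19, MT-ND6 at 0.13, MT-ATP6 at 0.26, MT-ND3 at 0.32, EGR1 at 0.16, MT-CYB at 0.30 and MT-ND5 at 0.17. With 6 irradiated libraries, DESeq2 on 12 libraries and relative log expression factors EGR1 was at 0.0040, 0.0099 and 0.011, and MT-CYB at 0.0034, 0.0042 and 0.0046. EGR1 was at 0.027 in batch 1 alone and 0.0020 without snoRNA hosts, and ABL1 at -0.012 with PCGs alone and -0.022 with upper quartile factors. Without 1 library the values ran from -0.76 to 0.34 for MT-ATP8, -0.43 to 0.25 for MT-ATP6, -0.28 to 0.072 for MT-ND3, -0.16 to 0.15 for MT-CYB, -0.41 to 0.29 for MT-ND5, -0.19 to 0.012 for DLEU2, -0.65 to 0.014 for RBFOX3, -0.28 to 0.090 for CDKN1A, -0.10 to 0.059 for EGR1, -0.049 to 0.16 for ABL1, -0.75 to 0.23 for SNHG1, -0.79 to 0.13 for GAS5 and -0.067 to 0.72 for ENSG00000280441.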
